A study of Saccharomyces cerevisiae with 3 samples.

Results

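The genes described here encode abundant mannoproteins that are covalently built into the wall of the budding yeast Saccharomyces cerevisiae. They were chosen by name: every probe set that the platform annotation assigns to 1 gene, and whose gene is CCW12, TIP1, CWP1, CWP2, SED1, CCW14, HSP150, PIR1, PIR3 or CIS3. All 10 genes were found among the 5656 genes with a probe set of their own, each with 1 probe set without a family letter code. RNA came from 3 independent steady-state chemostat cultures, which form 1 group, and each culture was hybridized to its own Affymetrix array. All cultures were aerobic and limited by glucose, at a dilution rate of 0.10 per h, 30 °C and pH 5.0, and the feed contained per litre 7.5 g glucose, 5.0 g ammonium sulphate and, as the zinc source, 4.5 mg zinc sulphate heptahydrate. Oxygen in the broth was kept over 80% of saturation with air. A strain name was not given in the sources used here, and with 1 group no contrast between conditions and no p-value is available.

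The yeast wall is a layer of glucan and chitin covered by heavily mannosylated proteins, and 2 kinds of linkage hold those proteins in place. In GPI proteins a lipid anchor added in the endoplasmic reticulum is cut at the cell surface, and its remnant is joined to glucan. Proteins with internal repeats (PIR proteins) are O-mannosylated, cut by the Kex2 protease in the secretory pathway and bound to glucan through glutamine residues of the repeat by an alkali-sensitive bond. CCW12, TIP1, CWP1, CWP2, SED1 and CCW14 encode the 6 GPI proteins, and HSP150, PIR1, PIR3 and CIS3 the 4 PIR proteins. Several of these genes are known targets of the cell wall integrity pathway, in which the kinase Slt2 activates the transcription factor Rlm1, and wall composition is known to change with oxygen, temperature and growth phase.

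The values are deposited intensities on a linear scale, and the arrays do not share a scale. Over the 3959 genes that were not dim, the median ratio of culture 2 to culture 1 was 2.31-fold, that of culture 3 to culture 1 was 1.74-fold, and that of culture 3 to culture 2 was 0.751-fold. Below, dim means a mean signal below 48.3, the 30th percentile of the 5656 genes, and bright means one above 589.6, the 90th. Brightness and rank describe a probe set on these arrays and do not order genes by transcript abundance. Each mean ± SD below is over 3 cultures (n = 3) and its SD contains the difference between arrays. As a check on the labelled condition, 3 of 4 measured genes listed for aerobic growth were bright, CYC1, COX5A and HYP2. The remaining gene, CYC7 (67.1 ± 31.3), was neither bright nor dim, and AAC2 and TIF51A had no value under those names. Of 6 markers of oxygen limitation 5 were dim, with TIR1 (157.5 ± 76.2) above the limit.

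Signals of the wall protein genes were high as a group: 6 of 10 were bright, where 10% of all genes are by definition, and none was dim, where 30% of all genes are. The bright members were CCW12, TIP1, CWP2, SED1, CCW14 and PIR1, and 4 of them (CCW12, TIP1, SED1 and CWP2) lay over the 99th percentile, which 1.01% of all genes exceed. HSP150 and CIS3 fell just short of the bright limit, and both pass it with the arrays at a common median. CWP1 and PIR3 lay in the middle range, at the 77.1 and 74.4 percentile of mean signal.

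CCW12, which encodes a small, heavily glycosylated GPI protein needed for normal wall strength, read 7038 in culture 1, 9166 in culture 2 and 8124 in culture 3 (8109 ± 1064). It was the brightest of all probe sets on each of the 3 arrays. TIP1, a member of the cold- and heat-shock-induced family that includes the TIR genes, read 5362, 6553 and 5830.4 (5915 ± 600.0), with rank 3, 7 and 3 of 5656 genes in cultures 1, 2 and 3. SED1, a structural GPI protein known as a major wall component of stationary-phase cells, read 3326, 3761 and 4105 (3731 ± 390.1). In these 3 genes the highest signal was 1.30, 1.22 and 1.23 times the lowest, where the median not-dim gene spanned 2.33-fold and the median gene over the 99th percentile 1.73-fold. Their coefficients of variation were 13.1% for CCW12, 10.1% for TIP1 and 10.5% for SED1, against medians of 40.7% over not-dim genes and 27.5% over genes past the 99th percentile. These values contain the difference between arrays and do not show steady expression. With the arrays at a common median the SDs of log2 signal were 0.44, 0.49 and 0.53 for the 3 genes. The medians were then 0.18 over not-dim genes and 0.27 over genes past the 99th percentile.

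CWP2, which encodes a major mannoprotein known for its part in resistance to low pH, followed the arrays more closely. It read 2463, 5132 and 3584 in cultures 1, 2 and 3 (3726 ± 1340.3), a span of 2.08-fold, with rank 31, 17 and 26. CWP1, which encodes a related protein deposited at the birth scar, is the neighbouring gene and read 187, 341 and 239 (255 ± 78.4). Both were lowest in culture 1 and highest in culture 2, as the median gene was and as CCW12, TIP1, CCW14 and PIR1 were. CCW14, an inner-layer GPI protein, read 1225, 2187 and 1976 (1796 ± 505).

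Among the PIR genes, PIR1 read 832 in culture 1, 1406 in culture 2 and 1374 in culture 3 (1204 ± 322), and its neighbour PIR3 read 138, 254 and 284 (225 ± 77.1). Both encode O-mannosylated wall proteins with roles in wall stability. HSP150, a secreted and wall-bound glycoprotein induced by heat shock, read 479, 486 and 766 (577 ± 164), so that cultures 1 and 2 gave nearly the same signal and culture 3 stood above them. Its neighbour CIS3, also called PIR4, read 398, 522 and 750.2 (557 ± 179) and was likewise highest in culture 3. HSP150 had rank 418 in culture 1, 921 in culture 2 and 442 in culture 3, and CIS3 had rank 503, 866 and 457. PIR5, a further gene of the family located beside HSP150, read 8.39, 23.7 and 21.2, which is below the 26.3 reached by sense-strand control probe sets that have no labelled target, so its signal can be nonspecific.

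**Figure D1:**
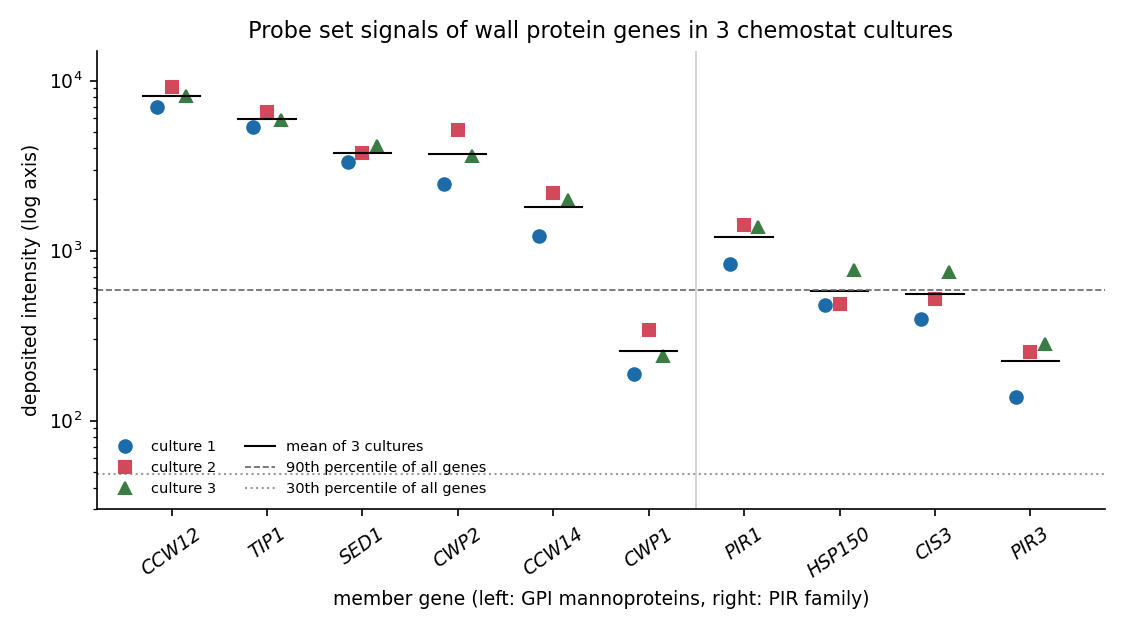
Deposited intensity (log axis) of each wall protein gene in cultures 1, 2 and 3 (symbols) with the mean of the 3 cultures (bar), GPI genes on the left and PIR genes on the right. As deposited, CCW12, TIP1 and SED1 have closely spaced symbols, whereas CWP2 spans 2.08-fold and HSP150 is high in culture 3 alone. The arrays do not share a scale. At a common median CWP2 has the smallest SD of the 10 genes (0.15), SED1 has a log2 range of 1.06, and HSP150 is highest in culture 1 and lowest in culture 2.

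To set the cultures side by side, signals were taken to log2 and the arrays brought to a common median of not-dim genes. A deviation is the log2 signal of a culture minus the mean of the gene over the 3 cultures. All 10 genes then stood above their own mean in culture 1 (below it with arrays scaled to the hybridization controls) and all 10 below it in culture 2 (7 of 10 with that scaling), with median deviations of 0.27 and -0.33, and the median in culture 3 was 0.02. Of all not-dim genes 57% stood above their mean in culture 1 and 49.8% below it in culture 2, and of the 57 genes over the 99th percentile all 57 and 54 did. The medians over all not-dim genes were 0.03, 0.00 and -0.01 in cultures 1, 2 and 3. Bright probe sets shifted in the same direction as the members in cultures 1 and 2. The 566 genes over the 90th percentile had medians of 0.13, -0.05 and -0.06 in cultures 1, 2 and 3. The 57 genes over the 99th percentile had 0.30, -0.18 and -0.14. In culture 3 the members split: the 6 GPI genes had a median of -0.14, with 5 of 6 below 0. The 4 PIR genes had a median of 0.28 there, and all 4 stood above 0. The part of brightness in the deviations of the members was not tested.

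After quantile normalization the medians over the 10 genes were 0.069, -0.20 and 0.15 in cultures 1, 2 and 3, and after cyclic loess they were 0.18, -0.23 and 0.12. Both methods reduce shifts that depend on brightness. Of the 57 genes over the 99th percentile, 28 stood below 0 in culture 2 after quantile normalization and 40 after loess. In culture 2 the deviation stayed below 0 in 8 of 10 genes after quantile normalization and in 9 of 10 after loess, against 44.5% and 47.9% of not-dim genes. The exceptions were CWP2, at 0.15 and 0.10, and, after quantile normalization, CCW12, whose rank is 1 on all arrays and whose deviation is 0 by construction. Culture 2 was the lowest of the 3 cultures for 8 of 10 genes at a common median, against 36.9% of not-dim genes, and for 5 of the 6 bright members, against 41.7% of genes over the 90th percentile. Of the 6, CCW12, TIP1, SED1 and CWP2 lie over the 99th percentile, where culture 2 was lowest for 56.1% of genes. It was lowest for 7 of 10 after quantile normalization, against 33.6% of not-dim genes, and for 8 of 10 after loess, against 36.3%. Over the 99th percentile culture 2 was lowest for 35.1% of genes after quantile normalization and for 52.6% after loess.

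**Figure D2:**
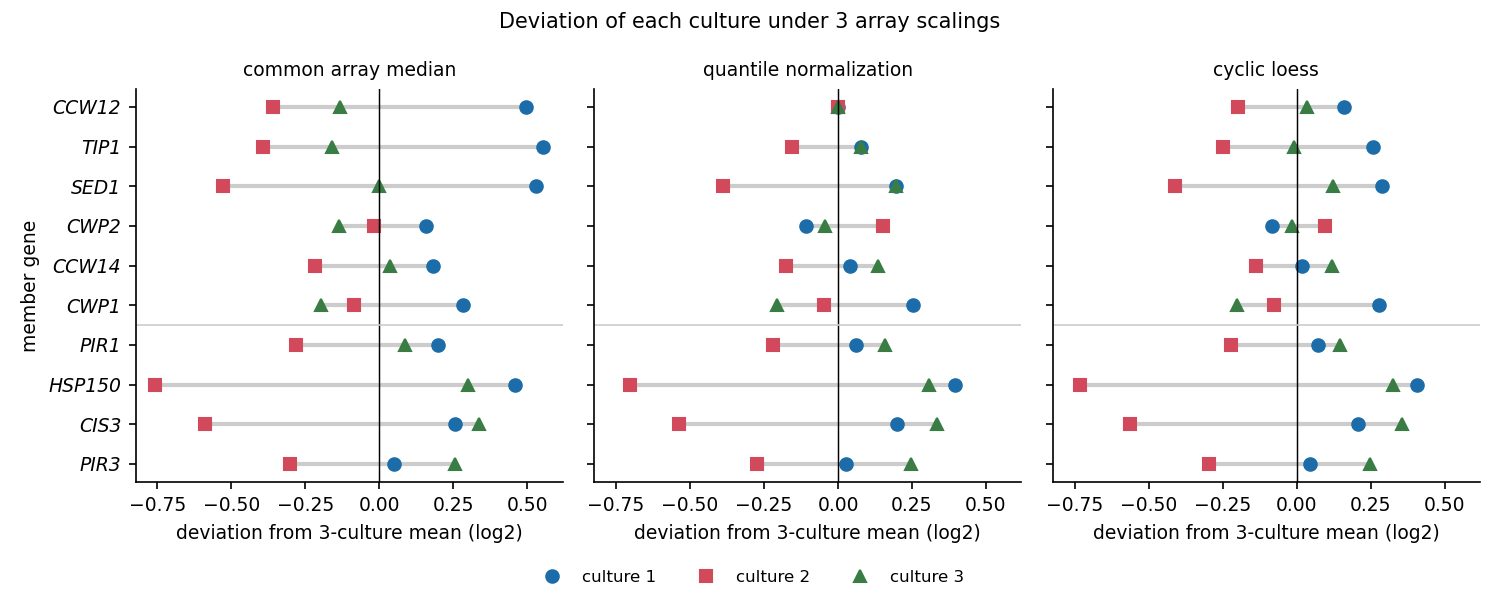
Deviation (log2) of each culture from the mean of the 3 cultures, per gene, with the arrays at a common median (left), after quantile normalization (middle) and after cyclic loess (right). In the 3 panels the red squares of culture 2 lie at the left end for all 4 PIR genes and for SED1, TIP1 and CCW14. Those of CWP2 lie to the right of 0 in the middle and right panels.

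Of the 10 genes, HSP150 had the largest SD between cultures under each of the 3 scalings. Its deviations at a common median were 0.46, -0.76 and 0.30 in cultures 1, 2 and 3, so that culture 1 stood 2.32-fold and culture 3 stood 2.08-fold above culture 2. Culture 2 lay over 2-fold below culture 1 for HSP150 and SED1 (2 of 10, against 2.25% of not-dim genes), and culture 3 over 2-fold above culture 2 for HSP150 (1 of 10, against 1.59%). For HSP150 after quantile normalization the differences were 2.14-fold and 2.01-fold, and after loess 2.20-fold and 2.08-fold. Its deviation in culture 2 was lower than that of all but 0.935% of not-dim genes.

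CIS3 had the same order of signs as HSP150, with deviations of 0.25, -0.59 and 0.33. Culture 1 stood 1.79-fold and culture 3 stood 1.90-fold above culture 2, and 2.27% of not-dim genes deviated further down in culture 2. PIR1 deviated by 0.20, -0.28 and 0.09 and PIR3 by 0.05, -0.30 and 0.25. The 4 PIR genes thus shared the sign in each culture, with culture 2 below both others under the 3 scalings, although with arrays scaled to the hybridization controls culture 1 was lowest for PIR1, PIR3 and CIS3. Their median in culture 2 was -0.45 at a common median, -0.41 after quantile normalization and -0.43 after loess.

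At a common median SED1 deviated by 0.53, -0.53 and 0.00 in cultures 1, 2 and 3, and by 0.19, -0.39 and 0.19 after quantile normalization, so its low value in culture 2 remained under both. TIP1 deviated by 0.55, -0.39 and -0.16 at a common median and by 0.08, -0.16 and 0.08 after quantile normalization. The corresponding values of CCW12 were 0.49, -0.36 and -0.13 at a common median and 0.16, -0.20 and 0.04 after loess. CWP1 was lowest in culture 3, with 0.28, -0.08 and -0.20, and CCW14 deviated by 0.18, -0.22 and 0.04. At a common median CWP2 had the smallest SD of the 10 genes, 0.15 on the log2 scale, with deviations of 0.16, -0.02 and -0.14.

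A difference of more than 2-fold between the highest and the lowest culture, at a common median, was found for 2 of 10 genes, SED1 (log2 range 1.06) and HSP150 (1.22), against 3.59% of not-dim genes. As deposited it was CWP2 and PIR3 that spanned more than 2-fold, against 75.5% of not-dim genes. After quantile normalization and after loess HSP150 alone did so among the 10, against 3.49% and 3.41% of not-dim genes. Without culture 2, 0 of 10 genes passed at a common median, against 0.783% of not-dim genes, and without culture 1 the count was 1 of 10, against 1.82%. A deviation under -0.5 in culture 2 was found for SED1, HSP150 and CIS3 at a common median (3 of 10, against 3.56% of not-dim genes) and for HSP150 and CIS3 after quantile normalization (2 of 10, against 3.33%). Each difference compares single arrays and has no replicate check.

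The median SD of log2 signal between cultures was 0.36 over the 10 genes at a common median, compared with 0.18 over not-dim genes, 0.18 over the genes past the 90th percentile and 0.27 over those past the 99th. The value of the 10 genes was 0.18 without culture 2 and 0.22 without culture 1. After quantile normalization it was 0.21 over the 10 genes, 0.18 over not-dim genes and 0.10 over the 57 brightest. The 4 PIR genes had a median SD of 0.40 at a common median and 0.37 after quantile normalization, while the 6 GPI genes had 0.35 and 0.15. Quantile normalization sets the SD of CCW12, at rank 1 on all arrays, to 0 by construction. It also gives TIP1 and SED1 equal values in cultures 1 and 3, where their ranks are equal. The part of this in the lower GPI value was not tested. After quantile normalization the SD was 0.61 for HSP150, 0.47 for CIS3, 0.26 for PIR3 and 0.20 for PIR1.

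**Figure D3:**
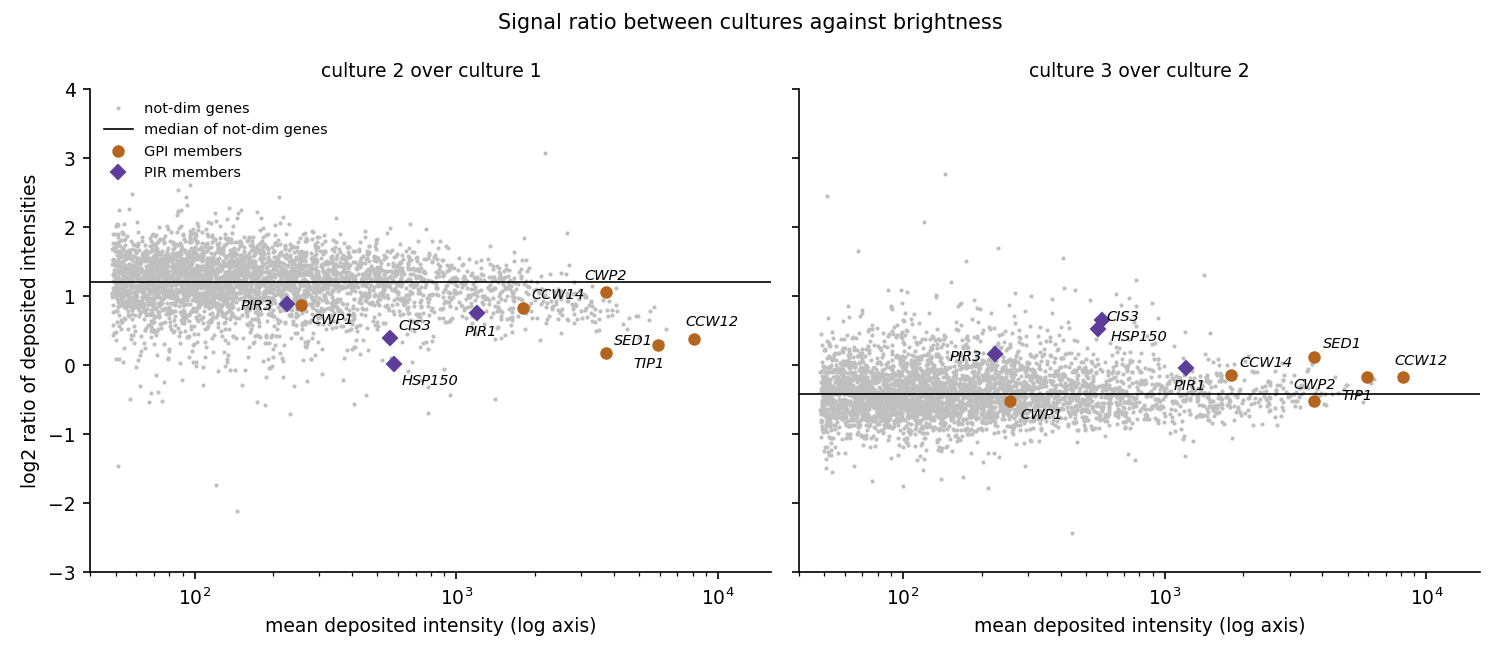
Log2 ratio of deposited intensities against mean deposited intensity (log axis) for not-dim genes (grey), GPI genes (circles) and PIR genes (diamonds), for culture 2 over culture 1 (left) and culture 3 over culture 2 (right), with the median of not-dim genes as a line. The grey cloud bends towards 0 among the brightest genes in the left panel. HSP150 and CIS3 lie low in the cloud in the left panel and high in the right, with some other genes further out. SED1, TIP1 and CCW12, which are brighter, lie lower than CIS3 in the left panel.

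The ratio of 2 genes on the same array does not depend on the scale factor of that array, so it was followed across the cultures for all 45 pairs of members. The ratio moved by a median of 1.53-fold between its highest and lowest culture, against 1.43-fold over all 7834861 pairs of not-dim genes, and by more than 2-fold in 4 of 45 pairs (8.89%), against 11.7% of all pairs. Those 4 pairs joined HSP150 or CIS3 with CWP1 or CWP2. The ratio of CWP2 to HSP150 moved most, 2.26-fold, being highest in culture 2 and lowest in culture 3. The share of member pairs past 2-fold was below that of all pairs of not-dim genes but above that of bright pairs. For pairs of genes over the 90th percentile it was 6.92%, with a median move of 1.36-fold. For pairs over the 99th percentile it was 0.063%, with a median of 1.23-fold.

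Some pairs moved little. The ratio of CCW12 to TIP1 moved by 1.07-fold, that of CCW14 to PIR1 by 1.08-fold and that of the neighbours CWP1 and CWP2 by 1.14-fold. Among the other neighbouring genes, PIR1 and PIR3 moved by 1.25-fold and HSP150 and CIS3 by 1.29-fold. SED1 moved by 1.23-fold against both CCW12 and TIP1 and by 1.84-fold against CWP2. Between a GPI and a PIR gene the median over 24 pairs was 1.62-fold, while within the 15 GPI pairs it was 1.40-fold and within the 6 PIR pairs 1.44-fold. Such ratios show unequal change and do not show which of the genes changed. They also keep shifts that depend on brightness, and 5 of 6 GPI genes but 1 of 4 PIR genes were bright. The part of brightness in these medians was not tested.

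**Figure D4:**
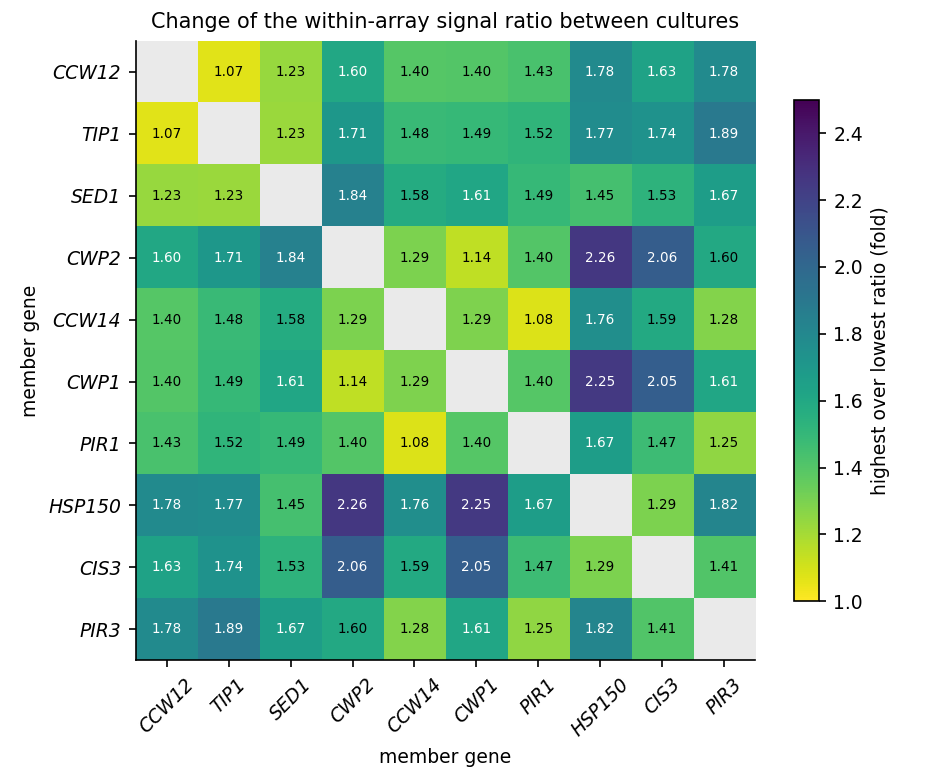
Change of the within-array signal ratio for each pair of wall protein genes, as the highest over the lowest of the 3 cultures (fold, colour and number). The darkest cells pair HSP150 and CIS3 with CWP1 and CWP2 (2.05 to 2.26), and the lightest pair CCW12 with TIP1 (1.07).

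Probe sets on this array are numbered along the genome, and those of HSP150 and CIS3 are consecutive, so values of probe sets with nearby numbers are given beside the low signal in culture 2. Of 96 not-dim probe sets within 75 numbers of HSP150, 6 had a deviation below -0.5 in culture 2 (6.25%), compared with 159 of 4797 over the array (3.31%), and the median deviation of the 96 was 0.05. Each window includes the gene at its centre and any member nearby, so the 6 include HSP150 and CIS3 themselves. Windows of the same width around the 10 genes held from 1.06% (PIR1) to 7.22% (CCW12, 7 of 97, with a median of -0.07). The next gene after CIS3, FAR1, deviated by 0.20 in culture 2. The part of probe set position in the result was not tested.

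The other wall protein genes were read from a list of 35, of which 34 were measured. Of these, 7 were bright (YGP1, SRL1, FIT3, ECM33, TOS1, HPF1 and UTH1) and 7 were dim (FIT1, DAN1, PIR5, FLO1, FLO5, FLO10 and FLO11). ECM33, a GPI protein needed for wall integrity, had the highest signal at 2679 ± 602 and deviated by 0.34, -0.23 and -0.11 in cultures 1, 2 and 3. The flocculin gene FLO1 had the lowest, at 0.937 ± 0.516. At a common median 4 of the 27 not-dim genes ranged over more than 2-fold, against 3.59% of all not-dim genes: FIT3, TOS6, TIR3 and TIR4. TOS6, which encodes a GPI wall protein, varied most, with 333, 226 and 664 and deviations of 0.54, -1.25 and 0.71. FIT3, an iron-responsive mannoprotein named after its values were seen, read 713, 689 and 1284 and deviated by -0.86 in culture 2. The median deviation of the list in culture 2 was -0.15 at a common median and -0.12 after quantile normalization. At a common median culture 2 was lowest for 16 of 27 genes, against 36.9% of all not-dim genes.

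Of 27 measured genes of protein mannosylation and Kex2 processing, 4 were bright (PMT2, PSA1, SEC53 and DPM1) and 3 were dim, and 0 of 24 not-dim genes ranged over more than 2-fold. PSA1, which makes the mannose donor GDP-mannose, was brightest at 1330.3 ± 422 and PMT5, a protein mannosyltransferase, dimmest at 32.4 ± 9.71. DPM1, the dolichol phosphate mannose synthase, varied most, with deviations of 0.26, -0.46 and 0.20. KEX2, named after its values were seen as the protease that cuts PIR proteins, deviated by 0.04, -0.05 and 0.01. Of 25 measured genes of GPI anchor synthesis and wall transfer none was bright and 6 were dim, and the list medians were -0.14 in culture 1 and 0.12 in culture 2. In culture 1, 16 of 19 not-dim genes of the list stood below 0, against 1702 of all 3959 not-dim genes. In culture 2, 15 of 19 stood above 0, against 1989 of 3959. DFG5, one of a pair of putative mannosidases that attach GPI proteins to the wall, was brightest at 471 ± 186 and SMP3, a mannosyltransferase of anchor synthesis, dimmest at 17.5 ± 10.8. GAA1, a subunit of the GPI transamidase, was the 1 gene of 19 not-dim genes past 2-fold, with 54.2, 257 and 139.8 and a deviation of 0.50 in culture 2.

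In the list of wall integrity signalling and regulators, 1 of 30 measured genes was bright, the GTPase RHO1 (990.4 ± 427), and 9 were dim, with the sterol regulator UPC2 lowest at 15.7 ± 2.43. The kinase MKK1 was the 1 gene of 21 past 2-fold, with 55.0, 61.0 and 70.1 and deviations of 0.52, -0.56 and 0.04. SLT2 deviated by 0.04, 0.00 and -0.04 and RLM1 by 0.15, -0.29 and 0.13, both named after their values were seen. Among 31 genes of glucan and chitin synthesis and remodelling 8 were bright and 1 was dim. GAS1, a glucan elongating enzyme, read 2664 ± 837 and deviated by -0.10 in culture 2, and CRR1, a sporulation wall protein, read 8.27 ± 5.87. KRE1, a GPI protein of the surface that is involved in glucan assembly, was the 1 gene of 30 past 2-fold, with 506, 478 and 979 and deviations of 0.40, -0.92 and 0.52.

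**Figure D5:**
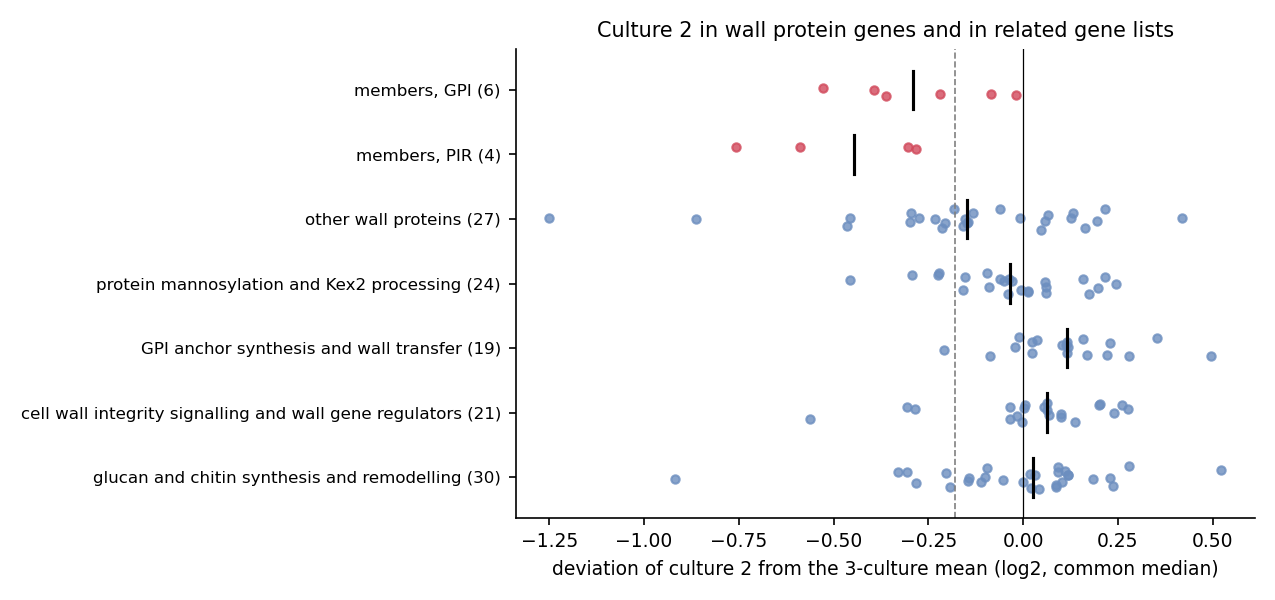
Deviation of culture 2 from the mean of the 3 cultures (log2, common median) for the not-dim genes of each list, with the list median as a bar and the number of genes in parentheses. The dashed line marks the median of genes over the 99th percentile (-0.18). The PIR genes have a median of -0.45 and the GPI genes of -0.29, and the lists of processing, anchor, signalling and glucan genes have medians between -0.03 and 0.12. With arrays scaled to the hybridization controls every value would lie 0.23 higher.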

How the data were processed

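The deposited values are probe set intensities, 1 array per culture, made by the authors with GCOS per the submitters' processing notes. The probe summary, the background step and any scaling were not given in the sources used here. Of 9335 probe sets, 60 were controls, 6504 had 1 gene and 328 had several genes and were not used. All 6504 were named through RefSeq gene IDs (R64). A gene with several probe sets was represented by the plain-named one, then by the brighter. Signals were floored at 1, taken to log2 and brought to a common median of not-dim genes. Alternatives were quantile normalization and cyclic loess (limma 3.58.1, R 4.3.3), a 2% trimmed mean, log2(signal + 16), the mean over probe sets, other limits and leaving out each culture. Scaling to hybridization controls or to bright genes was added after seeing the data. Genes and lists were chosen with earlier results of these data known. The named genes are the members, PIR5 and of each list the highest, the lowest and the most variable not-dim gene, apart from those said to be chosen later. The remaining computations ran under Python 3.11.15 (numpy 2.4.6, pandas 2.3.3) and were tested on simulated data. The number of arrays limits the precision.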

Additional observations from a re-analysis of the deposited data

How the results depend on the processing

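The number of members past 2-fold, 2 at a common median, was 1 after quantile normalization, cyclic loess, trimmed-mean scaling, log2(signal + 16) or alignment on bright genes, and 0 to 2 with a culture left out. Of not-dim genes, 3.49% passed 2-fold with trimmed-mean scaling, 3.38% with alignment on bright genes and 2.48% with log2(signal + 16). When culture 3 was left out, 2 members passed, against 2.48% of not-dim genes. Scaled to the hybridization controls, 3 members passed, against 57.6% of not-dim genes. Leaving out a culture gave a median SD of 0.18 (without culture 2) to 0.47, median deviations of 0.11 to 0.33 in culture 1, -0.33 to -0.16 in culture 2 and -0.11 to 0.16 in culture 3, and 6 to 8 bright members. Quantile normalization lowered the median in culture 1 to 0.069 and turned CWP2 there to -0.11, and loess turned it to -0.081. Scaling to the hybridization controls moved all genes alike, by -0.63, 0.23 and 0.40 in cultures 1, 2 and 3. The member medians then were -0.36, -0.10 and 0.42, with CCW12 at -0.13, TIP1 at -0.076, CWP1 at -0.35, CWP2 at -0.47 and SED1 at -0.10 in culture 1, and CCW14 at 0.012 in culture 2. Relative to that shift the members are as before. The deviation in culture 2 stayed below 0 for TIP1, SED1, HSP150, CIS3, PIR1 and PIR3 in all 11 alternatives that give one. It ran from -0.76 to -0.53 for HSP150 and from -0.59 to -0.36 for CIS3. The range was -0.53 to -0.26 for SED1 and -0.47 to -0.12 for TIP1. PIR1 ran from -0.29 to -0.05 and PIR3 from -0.31 to -0.07. The cause of the other moves was not tested. No paired analysis was possible because there is 1 group. Whether the brightest probe sets were saturated was not given in the sources used here.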

Other observations

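Genes next to the members on the chromosome were read after the member values were seen. AHP1, a peroxiredoxin gene beside CCW12, deviated by -0.42 in culture 2 at a common median. NRG2 and BAP2, which flank TIP1, deviated by -0.09 and 0.01, SHU2 beside SED1 by 0.03, and MCD4 beside PIR1 by 0.12.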
